A study of Mus musculus with 617 samples.

Results

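The collagen and laminin genes were taken by symbol from the annotation: protein-coding genes named as an alpha chain of a collagen (Col, a number, a, a number) or as an alpha, beta or gamma chain of a laminin (Lama, Lamb or Lamc and a number). There were 55 of them, 44 collagen and 11 laminin genes, among 43628 rows of each of 4 tables of FPKM (fragments scaled to transcript length and to library size). The study measured RNA in 617 single mouse cells along early development, from a female and a male embryonic stem (ES) cell line and from embryos, to follow allelic expression and X inactivation. All cultured cells came from a cross of a C57BL/6J female with a CAST/EiJ male. They were ES cells kept in 2i with LIF (60 of the female line, 51 of the male line), ES cells kept in serum with LIF (68 and 52), cells in Activin A and FGF2 labelled Epi (79 and 63), and cells labelled motor neuron (39 and 35), made by way of embryoid bodies given retinoic acid and SAG. The motor neuron protocol is described as giving several kinds of interneuron too. A further female Epi culture of 7 passages gave 41 cells in a table of its own. E3.5 inner cell mass (ICM, 23 cells) and E4.5 epiblast (23 cells) came from the same cross without a labelled sex, and E5.5 epiblast (20 female and 63 male cells) came from C57BL/6J parents on both sides. The labels name no transgene or deletion in any group. Each culture or stage was 1 sample, so that a culture state had n = 2, 1 per line, and the spread between lines is also the spread between sexes.

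Collagens are triple helices of alpha chains. Type IV collagen, built from products such as those of Col4a1 and Col4a2, forms the sheet-like network of basement membranes, while fibrillar collagens such as types I, III and V form the fibres of connective tissue. Laminins are cross-shaped trimers of 1 alpha, 1 beta and 1 gamma chain that polymerise on the cell surface and seed the basement membrane. In the early mouse embryo, laminins with the Lama1 or Lama5 chain underlie the epiblast, and parietal endoderm secretes large amounts of type IV collagen and laminin into Reichert's membrane.

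The labels were compared with marker genes before the members were read. The neuron list (Tubb3, Map2, Dcx, Stmn2, Elavl3, Snap25, Isl1 and Onecut2) had 8 of 8 genes at a mean of at least 1 FPKM in both motor neuron cultures. Its median sum per cell there was 141.4 FPKM (female) and 1051 FPKM (male). The same median was 146.1 and 135.3 FPKM in 2i and 142.6 and 116.8 FPKM in serum, so the median female cell was not above ES cells. In the motor neuron cultures 13 of 39 female and 15 of 35 male cells held more Sox17, an endoderm transcription factor, than Tubb3, a neuronal tubulin. The pluripotency factor Pou5f1 reached 1 FPKM in 95.1% to 100% of the cells of each group outside the motor neuron cultures. The female and the male Epi culture differed in state: the mean of Zfp42, a gene of naive pluripotency, was 72.5 FPKM in the female culture, against 0.0687 FPKM in the male one, and 0.117 FPKM in the female culture of 7 passages. The E5.5 cells had 6 of 6 visceral endoderm genes (Afp, Ttr, Amn, Apoa1, Apob and Cubn) at 1 FPKM or more in both sexes, with a median summed level per cell of 2145 FPKM (female) and 488 FPKM (male). Genes reaching 1 FPKM per cell had a median that ran from 8122 (E3.5) to 10839.5 (female E5.5). Reads were not counted here, so the depth behind a value is unknown.

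The start regions of 4 members are shown because the results turn on these chains and because Col4a1 and Col4a2 lie head to head. RefSeq windows on GRCm38.p6 ran from 250 bases before to 50 bases after a gene's start, and 40 of the 55 members matched 44 windows. Each is printed 5′ to 3′ on the strand of its gene. Capitals mark a CCAAT box (CCAAT, or ATTGG where it lies on the other strand) or a GC box (GGGCGG, or CCGCCC).
Col4a1, chr8:11312777-11313076, minus strand: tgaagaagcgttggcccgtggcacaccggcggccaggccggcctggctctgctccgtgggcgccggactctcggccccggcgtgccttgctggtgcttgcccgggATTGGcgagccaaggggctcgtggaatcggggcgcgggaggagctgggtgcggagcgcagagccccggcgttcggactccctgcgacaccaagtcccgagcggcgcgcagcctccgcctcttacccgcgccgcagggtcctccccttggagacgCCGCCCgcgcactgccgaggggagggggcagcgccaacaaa
Col4a2, chr8:11312555-11312854, plus strand: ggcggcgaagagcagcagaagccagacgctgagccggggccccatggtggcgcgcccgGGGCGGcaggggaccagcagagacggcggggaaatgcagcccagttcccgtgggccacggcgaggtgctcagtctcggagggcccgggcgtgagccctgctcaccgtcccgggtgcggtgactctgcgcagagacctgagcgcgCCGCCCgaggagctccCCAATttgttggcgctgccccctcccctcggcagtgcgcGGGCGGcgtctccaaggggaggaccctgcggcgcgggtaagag
Lamb1, chr12:31265043-31265342, plus strand: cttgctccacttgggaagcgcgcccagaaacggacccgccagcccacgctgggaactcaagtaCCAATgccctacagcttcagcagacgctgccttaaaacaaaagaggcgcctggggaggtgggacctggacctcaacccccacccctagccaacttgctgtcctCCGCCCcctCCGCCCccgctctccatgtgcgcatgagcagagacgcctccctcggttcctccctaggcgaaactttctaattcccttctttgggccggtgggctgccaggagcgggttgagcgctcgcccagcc
Lama5, chr2:180225810-180226109, minus strand: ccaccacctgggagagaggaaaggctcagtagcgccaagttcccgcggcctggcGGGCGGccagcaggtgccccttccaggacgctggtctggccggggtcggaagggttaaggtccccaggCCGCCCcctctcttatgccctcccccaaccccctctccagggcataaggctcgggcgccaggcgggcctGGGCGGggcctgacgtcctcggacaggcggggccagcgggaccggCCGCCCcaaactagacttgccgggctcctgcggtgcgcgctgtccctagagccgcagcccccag
The windows of Col4a1 and Col4a2 shared 78 bases, read on opposite strands, and their start sites were 21 bases apart. In the GENCODE vM21 annotation Col4a1 (chr8:11198423-11312826, minus strand) and Col4a2 (chr8:11312805-11449287, plus strand) overlapped by 22 bases at their first exons. The strand setting of the counting is not given in the sources used here, so fragments within that overlap cannot be told apart. The CCAAT box lay 32 bases before the start of Col4a2 and 187 before that of Lamb1, it was read on the other strand in Col4a1, outside the shared bases, and Lama5 had none. GC boxes numbered 1 in Col4a1, 3 in Col4a2, 2 in Lamb1 and 4 in Lama5. The GC box of Col4a1 and the last of Col4a2 were the same 6 bases (chr8:11312812-11312817), within the shared stretch, and are counted once for each gene; no other sites overlapped. A CCAAT box was present in 37.4% and a GC box in 35.7% of all 32851 windows of this length, against 31.8% and 59.1% of the 44 windows of members. The letters ATTGT (the core bound by SOX factors), GATAA (the core bound by GATA factors) and TATAAA (the TATA box), searched on both strands, were absent from the 4 windows. They occurred in 31%, 25.4% and 13.6% of all windows and in 6.8%, 18.2% and 11.4% of those of members. Matches of letters describe these windows only.

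Across the 13 groups, laminins were the more widely present family. Lama5, Lamb1, Lamb2 and Lamc1 had a mean of at least 1 FPKM in all 13 groups, and no collagen did. The number of collagen genes at a mean of at least 1 FPKM was 2 in female and 4 in male 2i cells, 6 and 6 in serum, 11 and 12 in Epi, and 23 and 10 in motor neuron cultures. It was 11 in the Epi culture of 7 passages, 7 at E3.5, 5 at E4.5 and 9 and 8 in female and male E5.5 cells. A group of 15 members stayed below 1 FPKM in every group: Col10a1, Col11a2, Col15a1, Col17a1, Col19a1, Col25a1, Col28a1, Col4a3, Col4a4, Col5a3, Col6a4, Col6a6, Col8a2 and Col9a1, and the gamma chain Lamc3. At this level a mean of FPKM cannot separate rare expression from absence.

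**Figure D1:**
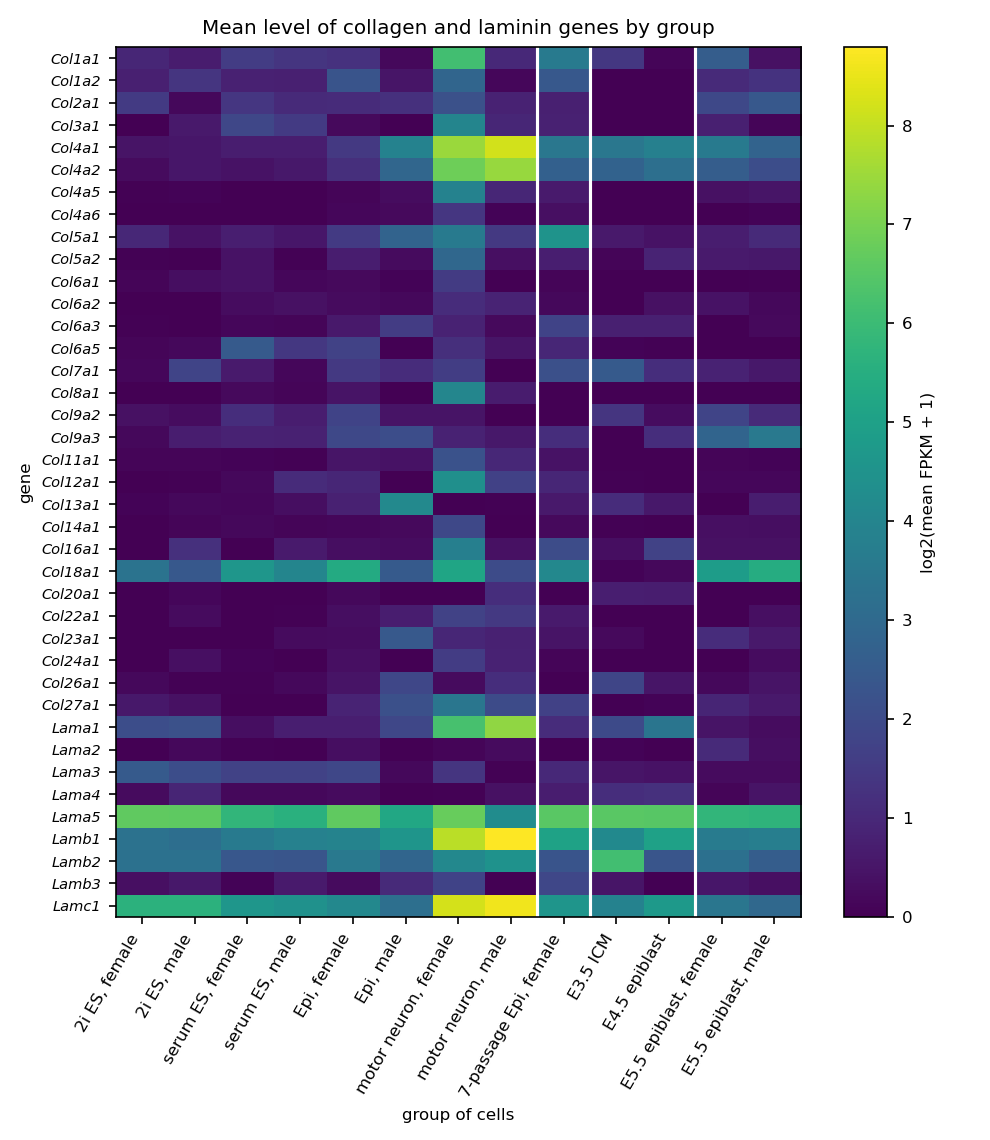
Mean level, as log2(mean FPKM + 1), of the collagen and laminin genes (vertical axis) in the 13 groups (horizontal axis). Brighter colours mark higher levels: Lama5 and Lamc1 lie above 0 in all columns, while Col4a1, Col4a2, Lama1, Lamb1 and Lamc1 are brightest in the 2 motor neuron columns. The 15 members below 1 FPKM in every group and 1 further member are left out.

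Lama5 (chr2:180176373-180225859), the alpha chain of the laminins of later epithelia, had the highest mean of all members in each group except the motor neuron cultures. It averaged 98.5 (female) and 96.9 FPKM (male) in 2i cells, 53.7 and 47 in serum, 99.6 and 37.4 in Epi, and 105.4 and 18.2 in motor neuron cultures. It was at 91.4 in the 7-passage Epi culture, 91.9 at E3.5, 91.2 at E4.5, and 53.9 and 52 in female and male E5.5 cells. Both lines were alike in 2i and in serum, and the female mean was above the male mean in Epi and motor neuron cultures. Lama1 (chr17:67697259-67822647), the other alpha chain of the early embryo, was far lower outside the motor neuron cultures. In serum the mean of Lama5 was 200.1 (female) and 68.3 (male) times that of Lama1, while in motor neuron cells it was 1.43 and 0.113 times.

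The members next in order of mean FPKM differed between groups. Lamc1 (chr1:153218922-153332786), the common gamma chain, came second in 2i and serum, at 48.9 FPKM in female and 49.1 in male 2i cells and 23.8 and 21 in serum. Col18a1, the basement membrane collagen whose end fragment is endostatin, took second place in female Epi (40.3 FPKM) and in E5.5 cells (28 female and 42.3 male). It came after Lamc1 in female 2i (9.28 FPKM) and in serum (23.4 and 15.0). In E3.5 cells Lamb2 ranked second at 69.3 FPKM, but 97.5% of its summed level came from 1 cell, and the mean was 1.79 FPKM without it. In the motor neuron cultures the leading members were Lamc1, Lamb1 and Col4a1.

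Serum was compared with 2i to ask what the change of ES medium does. The limma fit held 25 of the 55 members, those averaging at least 1 FPKM over the 8 cultures of ES, Epi and motor neuron cells. The other 30 did not pass, and a gene high in a single state could pass through that state alone, so counts over the 25 do not stand for the family. Changes are differences of log2(mean FPKM + 1) between cultures, which understate the change of genes at low levels, and a gene was called at a limma adjusted p under 0.05 with a change of at least 1. No member was called: 0 of 25 were higher and 0 lower, where 0.00645% and 0.0129% of 15504 genes were, and 5 members had an unadjusted p under 0.05 in limma. The median change of the 25 was 0.11, that of all genes 0.00, and 13 of the 25 were positive.

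Among the members of smallest p, 2 laminin chains were lower in serum in both lines. Lamc1, with the means given above, changed by -1.10 (SE 0.34, limma adjusted p = 0.319). Lama1 averaged 3.20 and 3.55 FPKM in 2i and 0.268 and 0.688 FPKM in serum, a change of -1.58 (SE 0.52, limma adjusted p = 0.358). Lama1 reached 1 FPKM in 88.3% of female 2i cells (Clopper-Pearson 95% interval 77.4 to 95.2%, counting error only) and in 11.8% (5.22 to 21.9%) of female serum cells. In male cells these shares were 92.2% and 21.2%. Col4a1 and Col4a2 were below 1 FPKM in all 4 of these cultures.

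Within 2i, the comparison of lines had 1 sample per arm and no test. Col18a1 was higher in the female culture, by a log2 ratio of 0.92, where the median of all genes was -0.04. Lamb1 (0.14), Lama5 (0.02) and Lamc1 (-0.00) were close to that median. In serum the female to male ratio was 0.61 for Col18a1, 0.19 for Lama5, 0.17 for Lamc1 and -0.23 for Lamb1, beside a median of -0.10 over all genes. The lines thus had similar levels of the main laminin chains in both ES media.

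The step to the primed state was read from Epi cells against ES cells in serum. Of the 25 members, 0 were called higher and 0 lower by limma, against 0.0322% and 0.00645% of all genes, and 6 had an unadjusted p under 0.05. The median change was 0.25 over the members and 0.12 over all genes, and 15 of the 25 were positive. The smallest p were those of Col9a3, a chain of cartilage type IX collagen, of Lamc1 and of Lamb2. Col9a3 averaged 0.793 and 0.765 FPKM in female and male serum cells and 2.74 and 3.27 FPKM in Epi, a change of 1.17 (SE 0.35, limma adjusted p = 0.727). Lamc1 was at 16.1 (female) and 8.2 FPKM (male) in Epi, lower than both serum cultures, with a change of -0.90 (SE 0.34). Lamb2, a beta chain of later basement membranes, was at 4.23 and 3.97 FPKM in serum and 10.9 and 6.22 FPKM in Epi, a change of 0.86 (SE 0.32). The limma adjusted p of both was 0.727.

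Both type IV collagen genes were higher in Epi than in serum in each line, by unequal amounts. Col4a1 averaged 0.647 and 0.634 FPKM in female and male serum cells, and 1.78 and 14.0 FPKM in Epi. Its change was 0.76 in the female and 3.19 in the male line, 1.98 on average (SE 0.75, limma adjusted p = 0.727). Col4a2 averaged 0.362 and 0.492 FPKM in serum and 1.25 and 6.44 FPKM in Epi, with a change of 1.52 (SE 0.57, limma adjusted p = 0.727). Col4a1 reached 1 FPKM in 29.1% (19.4 to 40.4%) of female Epi cells and in 92.1% (82.4 to 97.4%) of male ones, where the share was 25% in each serum culture. The female Epi culture decided the call. Without it, which left 1 sample in this state, the change was 3.19 for Col4a1 and 3.89 for Col13a1. Col13a1 could pass the filter through the male Epi culture, so no call is read from this fit. With the 7-passage female culture in place of the first, across 2 tables, limma called 2.94% of all genes higher. The members called there were Col4a1 (2.97, SE 0.32, limma adjusted p = 0.00857) and Col4a2 (2.29, SE 0.30, limma adjusted p = 0.0145).

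Female and male Epi differed most in Col13a1, a transmembrane collagen of cell junctions, which averaged 0.731 FPKM in the female culture, against 16.5 FPKM in the male one. It reached 1 FPKM in 15.2% (8.1 to 25%) of female cells, against 79.4% of male cells (67.3 to 88.5%). The log2 ratio of female to male was -3.34 for Col13a1, -2.43 for Col4a1 and -1.73 for Col4a2, where the median of all genes was 0.01. It was 2.87 for Col18a1, 1.39 for Lama5 and 0.89 for Lamc1, so these 3 were higher in the female culture. No test was possible with 1 sample per arm. The endoderm list (Sox17, Gata4, Gata6, Sox7, Foxa2, Dab2, Pdgfra and Hnf4a) moved with this difference: 3 of 8 genes averaged at least 1 FPKM in female and 6 of 8 in male Epi. The summed level per cell ran from 0 to 164 FPKM (median 1.87) in female and from 0 to 832 FPKM (median 57.8) in male cells, with Sox7 and Hnf4a at 0 in every male cell. The part of these cells in the type IV collagen levels was not tested.

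The 7-passage culture lay near male Epi for type IV collagen and apart from both for others. Its means were 10.1 FPKM for Col4a1 and 5.53 FPKM for Col4a2. Against the first female Epi culture the log2 ratio was 3.04 for Col5a1, a fibrillar collagen that averaged 22.1 FPKM there and 1.80 FPKM in the first culture, and 1.99 for Col4a1. It was -1.30 for Lamb2, -1.26 for Col18a1 and -0.12 for Lama5, beside a median of 0.11 over all genes. Against male Epi it was 1.73 for Col5a1 and 1.61 for Col18a1, and -3.53 for Col13a1, -0.43 for Col4a1 and -0.19 for Col4a2. These ratios set separately deposited tables side by side and carry no test. Mesenchyme markers (Twist1, Prrx1, Pdgfrb, Tagln, Acta2, Meox1, Lum and Dcn) averaged at least 1 FPKM for 4 of 8 genes in the 7-passage culture, with a summed level of 0 to 2008 FPKM per cell (median 197) and Lum at 0. In the first female culture this was 2 of 8 genes, with a sum of 0 to 276.7 FPKM (median 3.33). Their part in the Col5a1 level was not tested.

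Differentiation was read from the motor neuron cultures set against ES cells in serum, and here the members changed most. Of the 25 tested, 7 were called higher by limma and 0 lower, and 10 had an unadjusted p under 0.05. The 7 made 28% of the members tested, where 30.1% of all 15504 genes were called higher and 2.7% lower, so the share called was near the background in this fit. The median change was 1.76 for the members and 0.71 for all genes, and 19 of the 25 were positive. The shift of 0.71 depended on scaling: with upper-quartile scaling the median of all genes was -0.27, and limma called 1474 genes higher and 1827 lower, in place of 4669 and 419. A higher mean over cells of a culture can come from more cells of a kind or from more RNA per cell, which a mean cannot tell apart.

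The 5 largest called rises were in the chains of type IV collagen and of the Lama1-containing laminin. Col4a1 averaged 175 (female) and 292 FPKM (male) in the motor neuron cultures, compared with 0.647 and 0.634 FPKM in serum and at most 14.0 FPKM in any other group. The SD among cells was 247.3 FPKM in the female culture, against 364 FPKM in the male one. The change was 7.11 (SE 0.75, limma adjusted p = 0.00273). Col4a2 averaged 115.03 and 174 FPKM, a change of 6.64 (SE 0.57, limma adjusted p = 0.00211). The means of both genes in the 2 motor neuron cultures lay above those of all other groups, an order that was not counted over all genes. The ratio of Col4a1 to Col4a2 means was 1.52 and 1.68, within its range of 0.982 to 2.27 over the 13 groups.

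The laminin chains Lama1, Lamb1 and Lamc1 rose together with them. Lama1 averaged 73.6 (female) and 161 FPKM (male) in motor neuron cells, from 0.268 and 0.688 FPKM in serum, a change of 6.23 (SE 0.52, limma adjusted p = 0.00211). Lamb1 (chr12:31265234-31329644), the early beta chain, averaged 235.8 and 443 FPKM against 11.4 and 13.6 FPKM in serum, a change of 4.59 (SE 0.38, limma adjusted p = 0.00211). Lamc1 averaged 295 and 392 FPKM, a change of 3.87 (SE 0.34, limma adjusted p = 0.00211). For each of the 3 the means of both motor neuron cultures lay above those of every other culture. The share of all genes placed in this way was not counted. The 5 chain genes held 70.4% (female) and 95.5% (male) of the summed mean FPKM of all 55 members in these cultures, against 26.1% and 30.6% in serum.

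**Figure D2:**
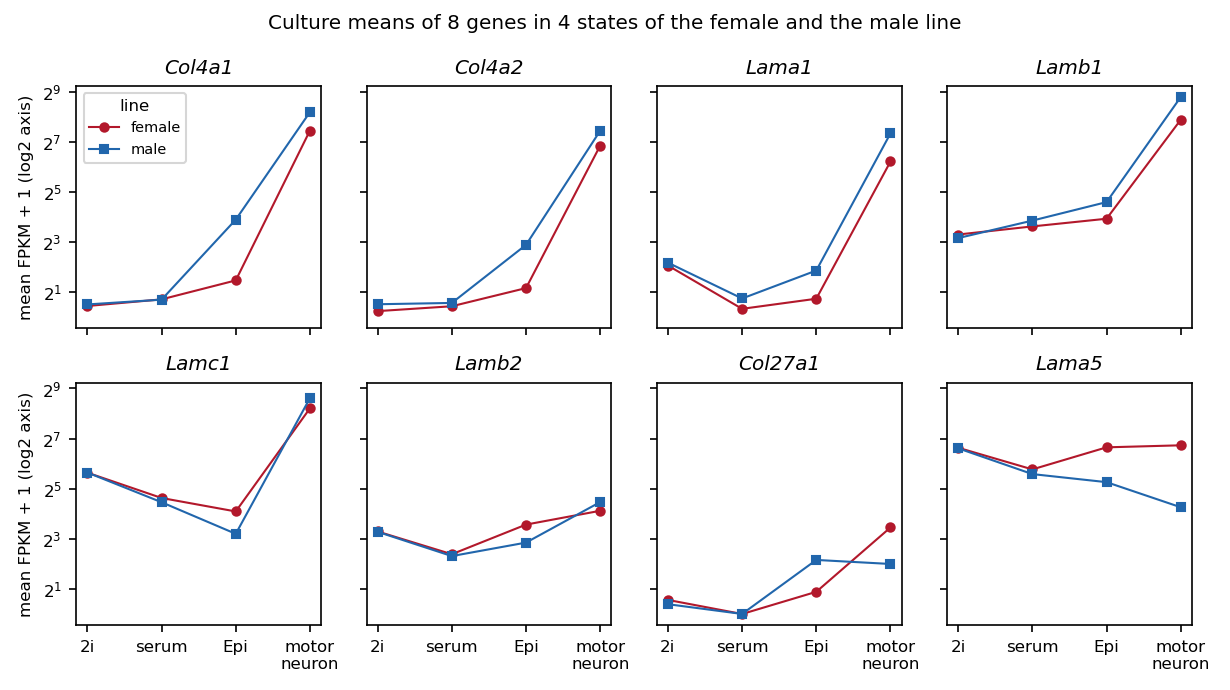
Mean FPKM per culture, on a log2(mean FPKM + 1) axis, of the 7 members called in motor neuron against serum and of Lama5, which was not called, with 1 point per line and state. Female and male points of the motor neuron cultures lie above those of serum, 2i and Epi for the 5 chain genes (Col4a1 at 175 and 292 FPKM).

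A pair of smaller rises completed the calls. Lamb2 averaged 16.4 (female) and 21.2 FPKM (male) in the motor neuron cultures, compared with 4.23 and 3.97 FPKM in serum, a change of 1.95 (SE 0.32, limma adjusted p = 0.00699). Col27a1, a fibrillar collagen of cartilage, averaged 9.98 and 3.00 FPKM, against 0.00193 and 0.0032 FPKM in serum, a change of 2.72 (SE 0.62, limma adjusted p = 0.018). Lamb1 remained the main beta chain, at 14.4 and 20.9 times the mean of Lamb2. The 5 chain genes were called under each alternative of scaling, filter, pseudocount and left-out culture. Lamb2 was not called without the female serum culture (limma adjusted p = 0.0509), without the male serum culture (0.0515) or with upper-quartile scaling (change 0.91, limma adjusted p = 0.16). Col27a1 was not called without the female (limma adjusted p = 0.0911) or the male serum culture (0.0876), with upper-quartile scaling (0.0556), with no low-value filter (0.0521) or with only the 4 cultures compared (0.0555). Both lost the call in the lower run of title numbers, a split of the cells by the number in their title (limma adjusted p = 0.0739 for Lamb2 and 0.0708 for Col27a1), and with log2 values averaged over cells.

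Other collagens were high in 1 motor neuron culture only. A mean of at least 5 FPKM in the female and under 5 FPKM in the male culture was found for 12 members (among them Col12a1, Col16a1, Col18a1, Col1a1, Col1a2, Col27a1, Col3a1, Col4a5, Col5a1, Col5a2 and Col8a1), and for 0 members the reverse. All genes were not counted in this way, so the 12 and 0 do not set the members apart. Col1a1 (chr11:94936224-94953042), a chain of the type I collagen of bone and skin, averaged 68.4 FPKM (female) and 1.02 FPKM (male), after 1.95 and 1.55 FPKM in serum. Its change was 4.56 in the female and -0.34 in the male line (mean 2.11, SE 1.48, limma adjusted p = 0.298). Col12a1, which binds fibrils of type I collagen, averaged 19.8 and 2.28 FPKM, with changes of 4.20 and 0.63 (mean 2.42, SE 0.88, limma adjusted p = 0.0748). Neither was called. Without the male motor neuron culture, which left 1 sample in this state, the change was 4.66 for Col1a1 and 3.75 for Col12a1. It was 3.87 for Col4a5, 3.85 for Col8a1, 3.46 for Col16a1, 3.00 for Col5a1, 2.70 for Col5a2 and 2.32 for Col3a1. Members high in the female culture alone could pass the filter through it, so no count of calls is read from this fit.

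**Figure D3:**
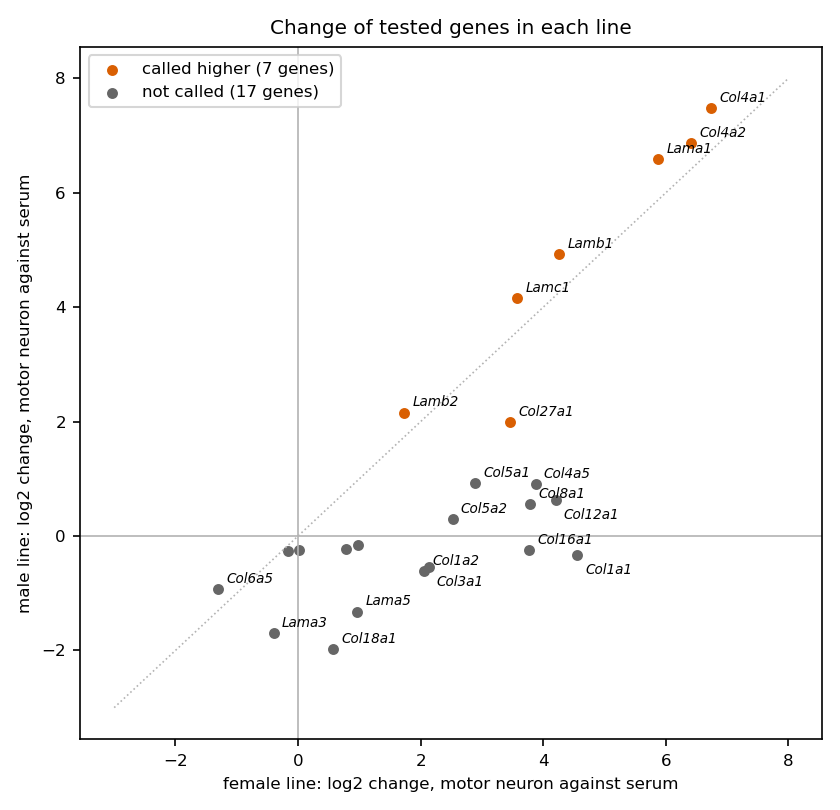
Change from serum to motor neuron, as log2(mean FPKM + 1), in the female line (horizontal axis) and in the male line (vertical axis), with 1 point per tested member reported here. Col4a1, Col4a2, Lama1, Lamb1 and Lamc1 lie at the upper right in both lines, while Col1a1 (4.56 and -0.34) and Col12a1 (4.20 and 0.63) lie far to the right and low.

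Between the motor neuron cultures the log2 ratio of female to male was 5.10 for Col1a1, 3.16 for Col18a1 and 2.66 for Col12a1. It was -1.12 for Lama1, -0.91 for Lamb1 and -0.74 for Col4a1, where the median of all genes was -0.20. By these means the chain genes were higher in the male culture and the 3 collagens in the female one. Single cells carried some of the female means. Without the highest cell the mean of Col1a1 was 42.1 in place of 68.4 FPKM, that of Col16a1 5.97 in place of 12.7, that of Col8a1 8.87 in place of 15.2, that of Col4a5 9.07 in place of 13.8 and that of Col5a2 4.32 in place of 6.66.

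The X-linked pair Col4a5 and Col4a6, whose products form type IV collagen of kidney and smooth muscle, also differed between lines. Col4a5 (chrX:141475385-141689234, plus strand) averaged 13.8 (female) and 0.903 FPKM (male) in the motor neuron cultures, a log2 ratio of 2.96. Col4a6 (chrX:141165403-141474076, minus strand), which starts 1308 bases from it, averaged 1.64 and 0.0654 FPKM, a log2 ratio of 1.31. In all other groups both were below 1 FPKM. The change of Col4a5 from serum was 3.88 in the female and 0.91 in the male line (mean 2.39, SE 0.89, limma adjusted p = 0.078). Col4a5 was called with a pseudocount of 0.1 (5.08, SE 1.39, limma adjusted p = 0.0331). Without the male motor neuron culture its change was 3.87. The chains Col4a3 and Col4a4 start 71 bases apart on chromosome 1 and stayed below 1 FPKM in every group.

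The cells of the motor neuron cultures were then divided by Sox17 and Tubb3, genes outside the family. Cells with more Sox17 than Tubb3 numbered 13 (female) and 15 (male). The rest were divided at 500 FPKM of Tubb3, a division chosen after their values were seen: 7 female and 17 male cells held at least that level, and 19 female and 3 male cells held neither. These are ranges of 2 genes and not cell types. In each culture 2 cells lay within 1 log2 unit of equal Sox17 and Tubb3, and 2 female and 3 male cells had Tubb3 within 2-fold of 500 FPKM. The endoderm list summed to a median of 743 (female) and 1950 FPKM (male) in cells with more Sox17, with 8 of 8 genes averaging at least 1 FPKM. In cells of high Tubb3 its median was 3.55 and 76.9 FPKM, while the neuron list had medians of 9981 and 10270 FPKM. Sox17 is on the endoderm list and Tubb3 on the neuron list, so part of these sums was set by the division itself. The median of Sox17 alone was 213.5 and 518 FPKM in cells with more Sox17. That of Tubb3 alone was 2632 and 3855 FPKM in cells of high Tubb3. The parietal endoderm list (Thbd, Plat, Srgn, Sparc, Stra6 and Fst) had medians of 3775 and 12953 FPKM in cells with more Sox17 and 192 and 431 FPKM in cells of high Tubb3. Its gene Sparc was also the one most alike to the 5 chain genes, as given below, so this list is not independent of them. Visceral endoderm (31.5 and 129 FPKM) and endothelium genes (9.52 and 4.15 FPKM) also had their highest medians in cells with more Sox17. So did trophectoderm genes (Cdx2, Krt8, Krt18, Gata3 and Tfap2c), at 1122 and 891 FPKM.

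The 5 chain genes were concentrated in the cells with more Sox17 than Tubb3. In the female culture Col4a1 averaged 472 FPKM in these cells (217 to 896), 7.95 FPKM in cells of high Tubb3 (0 to 43.2) and 32.5 FPKM in the remaining cells (0 to 191), without overlap between the first range and the others. In the male culture it averaged 464 FPKM (66.1 to 981), 107.99 FPKM (0.125 to 926) and 472 FPKM (16.3 to 1336), and the ranges overlapped. The medians of these male ranges were 448, 13.8 and 63.3 FPKM. Of the 3 male cells in the last range 1 held 94.4% of the sum, and 39.8 FPKM was the mean of the other 2. Lama1 averaged 217 FPKM in the female cells with more Sox17 (90.1 to 349.9), 0.258 FPKM in cells of high Tubb3 (0.971 at most) and 2.21 FPKM in the rest (11.9 at most). In the male culture its means were 280 FPKM (82.5 to 869), 51.3 FPKM (383 at most) and 191 FPKM (13.0 to 538), with medians of 237.3, 8.84 and 22.8 FPKM, and 1 cell held 93.8% of the sum of the last range. Of the summed Lama1 FPKM of a culture, 98.5% (female) and 74.4% (male) lay in cells with more Sox17.

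Lamb1, Lamc1 and Col4a2 followed the same order in the female culture. Lamb1 averaged 607 FPKM in cells with more Sox17 (270.7 to 1093), 2.66 FPKM in cells of high Tubb3 (0 to 11.8) and 67.6 FPKM in the rest (3.57 to 198). Lamc1 averaged 734 FPKM (161 to 1252), 14.5 FPKM (0.539 to 42.2) and 98.4 FPKM (3.16 to 256.95). Col4a2 averaged 301 FPKM (112.7 to 616), 12.9 FPKM (0 to 55.8) and 25.1 FPKM (0 to 85.8). Lamc1 was thus the only one of the 3 whose highest cell in the last range lay above the lowest cell of the first. The cells with more Sox17 held 85.8% and 72.9% of the summed Lamb1 of the female and male culture, 82.9% and 70.4% of Lamc1, 87.4% and 71% of Col4a2 and 90.1% and 68.2% of Col4a1.

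**Figure D4:**
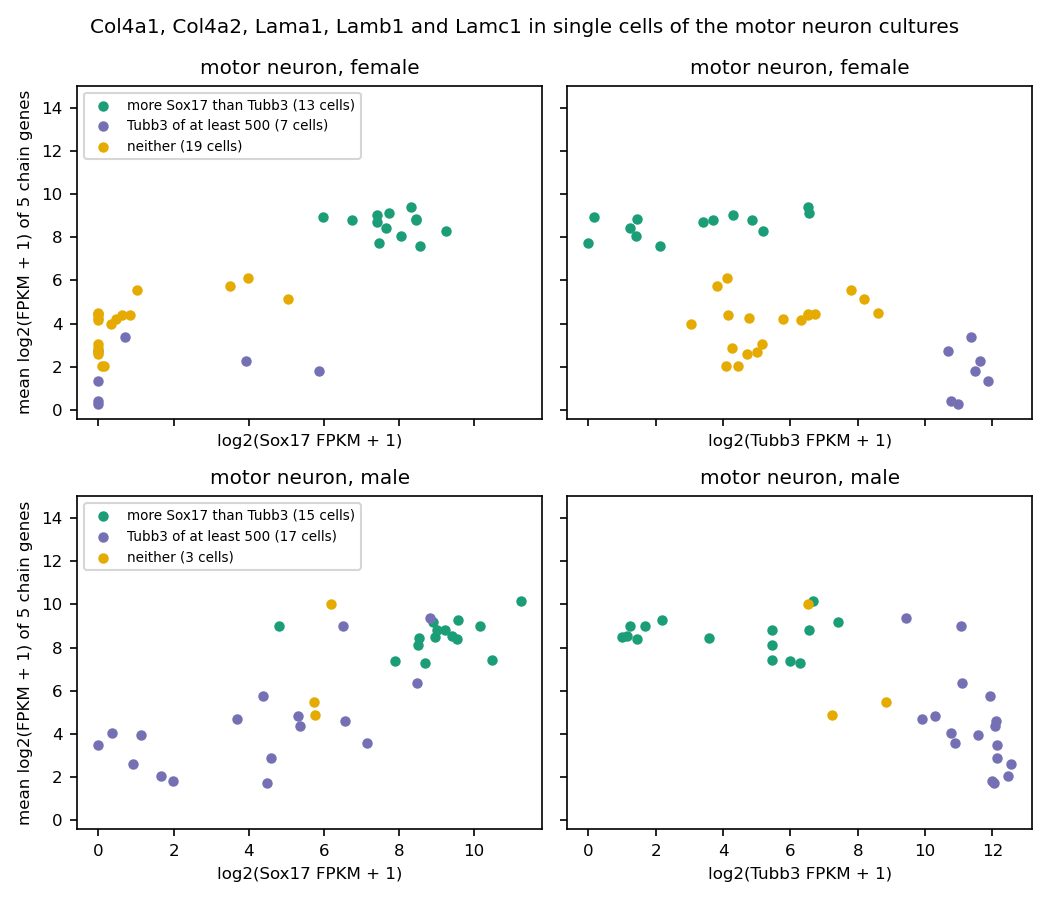
Mean log2(FPKM + 1) of Col4a1, Col4a2, Lama1, Lamb1 and Lamc1 per cell (vertical axis) against log2(FPKM + 1) of Sox17 (left) and of Tubb3 (right), for 39 female (top) and 35 male cells (bottom), coloured by range. In the female culture the 13 cells with more Sox17 than Tubb3 stand apart above all others, and in the male culture a few cells of high Tubb3 reach the same level.

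Spearman rho across the cells of each culture was computed for 27 members averaging at least 1 FPKM in a motor neuron culture, and 26 had a value in both. It describes 39 female and 35 male cells that share a culture, and carries no p. To Sox17, the mean rho of both cultures was 0.79 for Col4a2, 0.75 for Col4a1, 0.75 for Lamb1, 0.73 for Lamc1 and 0.71 for Lama1, the only members above 0.5 in both cultures. The lowest were Col6a2 (-0.41), Col11a1 (-0.34), Col22a1 (-0.29), Col18a1 (-0.27) and Col3a1 (-0.25). In all, 8 members were positive and 14 negative in both cultures. To Tubb3, the lowest were Lamb1 (-0.67), Lamc1 (-0.62), Lama1 (-0.60) and Col4a1 (-0.58), with Col4a2, Col27a1 and Lamb2 at -0.55. The highest were the fibrillar chain Col11a1 (0.37), the microfibril chain Col6a2 (0.29), Col14a1 (0.23), Col1a1 (0.15) and Col3a1 (0.14). All of these highest values to Tubb3 were weak, at 0.37 or below.

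Within the cells that held more Sox17 than Tubb3, the relation to Sox17 differed in sign between the cultures. The rank correlation of the 5 chain genes to Sox17 was -0.41 to -0.14 in the 13 female cells (median -0.21) and 0.26 to 0.54 in the 15 male cells (median 0.30). To Tubb3 it was 0.19 to 0.72 in the female and -0.23 to 0.12 in the male cells. Averaged over both cultures, the medians were 0.04 to Sox17 and 0.22 to Tubb3, where over all cells they were 0.74 and -0.60. Between any 2 of the 5 chain genes rho was 0.78 to 0.95 in the female and 0.85 to 0.94 in the male culture. Some cells held both markers: 1 female and 5 male cells had Tubb3 of at least 500 FPKM with Sox17 of at least 50 FPKM. Of the male ones, a cell with 90.7 FPKM of Sox17 and 2148 FPKM of Tubb3 had Col4a1 at 650.4 FPKM, and a cell with 450.3 and 693 FPKM had it at 926 FPKM. The former had 12914 genes at 1 FPKM or more, the highest number of its culture. Whether 2 cells were captured together was not tested.

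The rise of the chain genes was also measured without the cells of more Sox17 than Tubb3, an alternative added after seeing the data. Limma then called 5 of 24 members tested higher, where 29.7% of all genes were. Col4a1 had a change of 5.34 (SE 1.03, limma adjusted p = 0.0113), in place of 7.11, and Col4a2, Lamb1, Lamc1 and Lamb2 had changes of 4.99, 2.95, 2.42 and 1.46 (limma adjusted p = 0.00636, 0.0162, 0.0146 and 0.0373). Lama1 was no longer called, with a change of 3.26 (SE 1.4, limma adjusted p = 0.115), nor was Col27a1. A few cells carried the male mean in this fit: of the 20 male cells kept, 3 held 89.6% of the summed Col4a1, and all 3 held Sox17 at 72.3 to 450.3 FPKM. The mean of Col4a1 was 163 FPKM with these 3 cells, 19.96 FPKM over the other 17, and the median of the 20 was 17.2 FPKM. In a further fit, also added after seeing the data, all motor neuron cells with at least 10 FPKM of Sox17 were left out, which kept 21 female and 6 male cells. Limma then called 2 of 23 members tested higher, where 23.9% of all genes were. Col4a2 had a change of 3.58 (SE 0.59, limma adjusted p = 0.0112), and Col4a1 one of 2.70 (SE 0.80, limma adjusted p = 0.0498). Lama1 (1.70), Lamb1 (1.06), Lamc1 (0.48) and Lamb2 (0.01) were not called there (limma adjusted p = 0.111, 0.168, 0.627 and 1). The type IV collagen genes were thus the members called in both fits.

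In the female culture, most of the Lama5, Col18a1, Col1a1 and Col3a1 FPKM lay outside the cells with more Sox17. The fibrillar Col27a1 differed, with 86.1% of its female sum inside them. In the female culture Lama5 averaged 81.4 FPKM in cells with more Sox17, 1.70 FPKM in cells of high Tubb3 and 160.0 FPKM in the rest, which held 74% of its sum. In the male culture the means were 27.8, 7.11 and 32.6 FPKM, and there 65.6% of the sum lay in cells with more Sox17 and 15.4% in the 3 remaining cells. Lama5 was thus low in cells of high Tubb3 of both lines. Col18a1 averaged 2.46, 6.98 and 68.3 FPKM over the 3 ranges of the female culture, and its 19 remaining cells held 94.1% of the sum. Col1a1 averaged 1.06, 7.55 and 136.9 FPKM (median 22.4, highest 1067 in the last range), with 97.5% in the remaining cells. Col12a1 averaged 4.14, 6.52 and 35.4 FPKM, and Col4a5 averaged 0.0127, 0.0245 and 28.3 FPKM. Col3a1, which joins type I collagen in soft tissue, averaged 0.595, 9.84 and 27.1 FPKM.

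The male culture held 3 such remaining cells, so that the absence of high Col1a1 there rests on few cells. In the female culture mesenchyme markers, among other lists, moved with Col1a1 and Col3a1. Their sum per cell ran from 89.9 to 16626 FPKM (median 754) in the 19 remaining female cells, with 6 of 8 genes averaging at least 1 FPKM. It had medians of 222 FPKM in female cells with more Sox17 and 180 FPKM in female cells of high Tubb3, with Lum at 0 in both. In male cells with more Sox17 the median was 100.96 FPKM, and Twist1, Pdgfrb, Meox1, Lum and Dcn were at 0 in every cell. Of the other marker lists, 4 also had their highest median sum among the 3 female ranges in the remaining cells. For glia and progenitor genes (Sox2, Nes, Fabp7, Slc1a3 and Olig2) the medians were 60.9 FPKM there (18.03 to 1265), 6.73 FPKM in cells with more Sox17 and 0.838 FPKM in cells of high Tubb3, with 4 of 5 genes averaging at least 1 FPKM. For decidua genes (Hand2, Pgr, Prl8a2, Igfbp4, Vim and Dcn, the last also on the mesenchyme list) they were 1664 FPKM (95.3 to 7644), 256.99 FPKM and 847 FPKM, with 3 of 6 genes at that level and Pgr and Prl8a2 at 0. Pluripotency genes had medians of 32.1, 3.02 and 5.99 FPKM (3 of 4 genes at that level), and extraembryonic ectoderm genes of 13.5, 4.07 and 0.176 FPKM (3 of 6, Elf5 at 0). In the 3 remaining male cells, where Col1a1 averaged 1.24 FPKM, 2 lists were above the remaining female cells. Their medians were 1391 FPKM (glia and progenitor) and 2702 FPKM (decidua). Mesenchyme (194 FPKM), pluripotency (8.34 FPKM) and extraembryonic ectoderm genes (0 FPKM) were below them. The part of any of these in the Col1a1 level was not tested. The highest member of the remaining female cells was nonetheless a laminin, Lama5, with Lamc1 at 98.4 FPKM and Lamb1 at 67.6 FPKM.

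**Figure D5:**
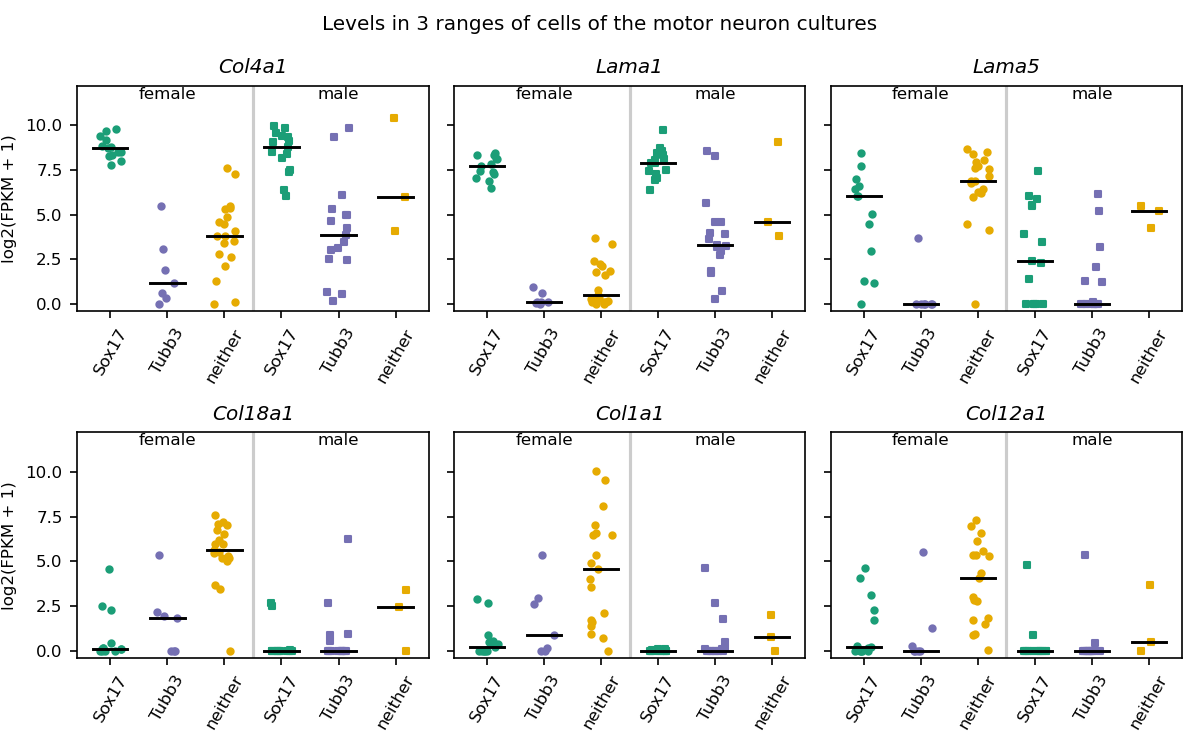
Level per cell, as log2(FPKM + 1), of members in the 3 ranges of motor neuron cells of each line: more Sox17 than Tubb3, Tubb3 of at least 500 FPKM, and neither. Col4a1 and Lama1 are highest in the first range of the female culture (means of 472 and 217 FPKM), while Col1a1 and Col18a1 are highest in its last (136.9 and 68.3 FPKM).

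Col27a1 and Lamb2 followed the chain genes in part. Col27a1 averaged 25.8 FPKM in the female cells with more Sox17 (24.9 as the median), 0.00296 FPKM in cells of high Tubb3 and 2.85 FPKM in the rest. In the male culture it averaged 6.53, 0.28 and 0.745 FPKM, with a median of 0.124 FPKM in the first range. Lamb2 averaged 31.1, 0.00404 and 12.4 FPKM in the female culture and 24.4, 13.8 and 46.6 FPKM in the male culture. The highest male cell of high Tubb3 had 205 FPKM of Lamb2, and the median of that range was 0. Both genes were at or near 0 in most cells of high Tubb3.

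Genes that act with these chains were read from a list of 51 partners: basement membrane linkers, integrins and other receptors, and the enzymes and chaperones that make, cross-link or cut collagen. Of these, 41 were tested. Limma called 0 higher and 0 lower in serum against 2i and in Epi against serum (median changes 0.24 and 0.18), and 27 higher and 0 lower in motor neuron against serum. These were 65.9% of the partners tested, where 30.1% of all genes were called higher and 2.7% lower, and their median change was 2.15, where all genes had 0.71. The largest changes were those of P4ha2, a prolyl 4-hydroxylase subunit (4.68, SE 0.62, limma adjusted p = 0.0041), Timp2, a metalloproteinase inhibitor (4.35, SE 0.40, limma adjusted p = 0.00233), and Sparc, a collagen-binding glycoprotein (4.34, SE 0.55, limma adjusted p = 0.00377). Hardly any gene of the whole table was called in the other comparisons, as given above, so nothing is read from the counts of 0 there.

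The genes most alike to the 5 chain genes were ranked by the mean rho of both cultures to their summed log2(FPKM + 1) per cell, over 39 and 35 cells and 8831 protein-coding genes of at least 5 FPKM in both. Sparc came first at 0.90, at means of 1774 FPKM in the female culture, against 6235 FPKM in the male one. The tissue factor gene F3, the podoplanin gene Pdpn and P4hb, a subunit of prolyl 4-hydroxylase, followed at 0.85. Epas1, Fkbp9 and Cd9 had 0.84, Rcn1 and the collagen chaperone gene Serpinh1 had 0.83, and Glipr1 had 0.82. Of these 10, Sparc, P4hb and Serpinh1 were also on the partner list.

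The embryo stages were 1 sample each and carry no test. E3.5 ICM and E4.5 epiblast were in 1 table. Lama5 was level between them, at 91.9 and 91.2 FPKM. Lama1 went from 2.97 to 9.64 FPKM (log2 ratio 1.42) and Lamc1 from 13.9 to 26.1 FPKM (0.86), beside a median of -0.08 over all genes. The spread among E4.5 cells was wide: Lama1 ran from 0.385 to 49 FPKM with a median of 2.83. Col4a1 averaged 10.2 FPKM at E3.5 and 13.2 FPKM at E4.5, and reached 1 FPKM in 91.3% (72 to 98.9%) and 78.3% (56.3 to 92.5%) of cells, more than in either ES medium. The endoderm list averaged at least 1 FPKM for 6 of 8 genes at E3.5 and 8 of 8 at E4.5, with median sums of 118.7 and 104.7 FPKM (27.8 to 411 and 0.526 to 506.6). Its part in the chain levels was not tested.

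E5.5 cells, in another table and of another cross, differed most from E4.5 in Col18a1 and Lama1. Col18a1 averaged 0.146 FPKM at E4.5, and 28 (female) and 42.3 FPKM (male) at E5.5, and it reached 1 FPKM in 4.35% of E4.5 cells (0.11 to 21.9%) and in 100% of E5.5 cells of both sexes. The log2 ratio was 4.66 and 5.24, beside a median over all genes of 1.02 and 0.99. Lama1 was lower, at 0.378 and 0.217 FPKM (-2.95 and -3.13). Col9a3 was higher, at 6.05 and 10.8 FPKM after 1.21 (1.67 and 2.41). Lamb1 (-1.35 and -1.25) and Lamc1 (-1.29 and -1.80) were lower in both sexes, while Lamb2 in female cells (0.91) stayed near the median of all genes.

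Between the sexes at E5.5, Col4a1 was at 11.3 FPKM (female) and 5.92 FPKM (male; log2 ratio 0.83), Lamb2 at 8.44 and 4.98 (0.66) and Lamc1 at 10.1 and 6.78 (0.51). Col9a3 (-0.74) and Col18a1 (-0.58) were higher in male cells, and Lamb1 (-0.11) was near the median of all genes, 0.02. The visceral endoderm list differed in the same direction as Col4a1, with sums of 181 to 9353 FPKM in female and 16.9 to 2671 FPKM in male cells. Its part in these ratios was not tested. The chain genes of E5.5 cells were all far below their means in the motor neuron cultures, with Lamb1 at 11.7 and 12.7 FPKM.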

How the data were processed

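Single-cell RNA (SMART-seq2 with Tn5, per the labels' protocols) was deposited by the authors as FPKM per gene and cell in 4 tables. STAR 2.4.1, Cufflinks, Cuffnorm 2.2.1 and the build mm10 are named in the submitters' processing notes. What the FPKM are scaled to, the strand setting and the cell filters are not given in the sources used here. In 356 values the exponent had a low line for its minus sign and was read as small. Of 43628 rows, 42462 had an entry in GENCODE vM21, which gave symbols and GRCm38 coordinates.

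The mean FPKM over the cells of each of 8 cultures (4 states, 2 lines) entered 1 limma 3.58.1 fit (R 4.3.3, trend) on log2(mean FPKM + 1), for genes averaging at least 1 FPKM, with 4 residual degrees of freedom. A gene was called where its p, adjusted by Benjamini-Hochberg over all genes, was under 0.05 and its log2 change was 1 or more in size. The script was tested on simulated data. Both lines recur in each state, so they pair the samples by label, and the line as a block was an alternative. P-values measure the spread between these 2 lines only. Comparisons with 1 sample per arm carry no test. Shares of cells used 1 FPKM, with Clopper-Pearson intervals (95%) for counting error.

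The members and lists were chosen with earlier results of these data known. Named were the 5 chain genes with Lama5, Lamb2, Col4a5 and Col4a6, all called members or else the 3 of smallest p, and the 3 highest per group. Added to these were the 3 largest ratios in each direction per untested comparison (of members at 5 FPKM and in 50% of cells of the higher group), the 5 highest and 5 lowest rho, the 10 most alike genes and the 3 largest partner changes in each direction. Other named members were chosen after their values were seen. The individual values of 1 member are not reported here, though it is part of the counts.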

Additional observations from a re-analysis of the deposited data

Results flagged for a closer look

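In 6 of 75 pairs of member changes, the female and the male line moved in opposite directions by at least 0.5 each on the log2(mean FPKM + 1) scale. The difference between lines was not tested in any of them, since each line gave 1 culture per state. From serum to Epi, Col18a1 changed by 0.76 in the female and -1.50 in the male line, and Col12a1 by 0.78 and -1.07. From serum to motor neuron, Col18a1 changed by 0.57 and -1.97, and Lama5 by 0.96 and -1.32. In the same comparison Col3a1 changed by 2.13 and -0.55, and Col1a2 by 2.05 and -0.62. In all 6 the female line had the higher change.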

How the results depend on the processing

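In motor neuron against serum, 7 members were called, also with the line as a replicate block (7). Leaving out a single culture left 1 sample in its state, so no count of calls is read from those fits. The losses of the Lamb2 and Col27a1 calls without a serum culture are given above. Without motor neuron cells of at least 10 FPKM of Sox17, a fit on fewer cells, 2 were called. The block changed no call of a named member. In Epi against serum the count was 0, but 2 with the 7-passage culture. In 1 run of title numbers, whose meaning the labels do not give, the change of Lamb2 in that comparison turned from 0.86 to -0.39 (lower run). The cause was not tested. The median rho of the 5 chain genes to Sox17, 0.74, became 0.78 as Pearson r, 0.79 in the lower and 0.73 in the higher run, and 0.04 within cells of more Sox17 than Tubb3 (-0.21 female, 0.30 male). To Tubb3 it went from -0.60 to -0.34 in the higher run and to 0.22 within those cells, a subset of 13 female and 15 male cells. In that subset Sox17 ran from 62.5 to 607 FPKM (female) and from 26.7 to 2419 FPKM (male). Tubb3 ran from 0 to 93.6 FPKM and from 1.01 to 169 FPKM. Averaging log2 values over cells ended the calls of Col27a1 and Lamb2 (limma adjusted p = 0.0568 and 0.0761). A last count took only the called members of each comparison, or else those of smallest p. Of their changes over all alternatives, 69 in serum and 65 in Epi kept their direction and side of the threshold. In motor neuron 17 lost the call while keeping their direction. Col4a1, Col4a2 and Col13a1 were outside the Epi count. The calls of Col4a1 and Col4a2 in Epi depended on the Epi cultures used, as given above. Without read counts, precision near 1 FPKM is unknown.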
